A study of Homo sapiens with 6 samples.

Results

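Expression of 10 Hippo pathway genes was followed between a human esophageal squamous cell carcinoma line and a clone of it with a disrupted NFE2L2 gene. They were the kinase genes STK3, STK4, LATS1 and LATS2, the kinase scaffold gene SAV1, the coactivator genes YAP1 and WWTR1, and the transcription factor genes TEAD1, TEAD3 and TEAD4. They were taken by symbol from a table of 58884 genes, and none of the symbols occurred more than once. KYSE70 is an established line whose NFE2L2 gene, which encodes the transcription factor NRF2, is mutant. NRF2null-KYSE70 was grown from a single KYSE70 clone after CRISPR-Cas9 cutting of NFE2L2 had left a small frameshifting deletion. The study still saw a faint, smaller NRF2 protein band and some NFE2L2 transcript variants in this clone. It stated that NRF2 was not completely lost, so the name of the line does not mean that all NRF2 was absent. Cells of both lines were untreated and grown in the same medium, and each line had 3 RNA-seq libraries, so 6 libraries were compared. Because NRF2null-KYSE70 was 1 clone, the libraries measured the spread between cultures or preparations of a line, which may be technical, and a difference between the lines cannot be told apart from a difference between this clone and other cells of its parent.

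In the Hippo pathway, the kinases MST1 and MST2 (encoded by STK4 and STK3), held by the scaffold SAV1, phosphorylate the kinases LATS1 and LATS2. LATS kinases then phosphorylate the coactivators YAP and TAZ (encoded by YAP1 and WWTR1), which are kept in the cytoplasm and degraded. YAP and TAZ that escape this enter the nucleus, where TEAD proteins hold them on DNA, since they bind no DNA on their own. In squamous epithelia the pathway is known for limiting YAP and TAZ activity to the basal, dividing layer. Its signal runs through phosphorylation and protein location, neither of which was measured here, so the values below are levels of mRNA only.

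Of the 10 genes, 8 were higher in NRF2null-KYSE70, 1 was lower and 1 did not pass the test. TEAD1 and LATS2 rose more than the others, to 2.25 and 2.34 times the parental level, and WWTR1 was the gene that fell, to 72.4% of it. LATS1 was the gene without a call. In bulk RNA, more cells with a transcript and more of it per cell cannot be told apart. The test was limma on log2(normalized count + 1) over the 15994 genes with a mean of at least 10 normalized counts, with Benjamini-Hochberg adjustment over all of them, and a gene was called at an adjusted p under 0.05. The lines differed widely: 57.6% of all genes tested were called, 29.3% higher and 28.3% lower. The count of 9 calls among 10 genes is to be read beside those shares, and the split of 8 higher to 1 lower beside a near even split. The share of calls was larger among genes with a mean of at least 50 (8415 of 13004), and all 10 genes were above that mean. The median log2 fold change was 0.43 over the 10 genes and -0.01 over all genes tested.

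Promoter sequences of 3 of the genes that rose, a coactivator, a kinase and a scaffold, are shown side by side. Each is the 250 bases before the start of the gene in RefSeq (GRCh38.p14), written 5′ to 3′ along the gene's strand, with a motif match in capitals. The table of RefSeq promoters used here matched 7 of the 10 genes, in 9 promoters, and those of TEAD1, TEAD4 and STK3 were not analysed here.
YAP1, chr11:102110197-102110446, plus strand: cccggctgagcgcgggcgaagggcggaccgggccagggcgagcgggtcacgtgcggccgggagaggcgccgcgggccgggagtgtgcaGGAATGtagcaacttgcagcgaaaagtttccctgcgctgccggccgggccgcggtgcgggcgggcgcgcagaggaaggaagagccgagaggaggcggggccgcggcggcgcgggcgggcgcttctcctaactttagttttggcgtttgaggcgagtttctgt
LATS2, chr13:21061587-21061836, minus strand: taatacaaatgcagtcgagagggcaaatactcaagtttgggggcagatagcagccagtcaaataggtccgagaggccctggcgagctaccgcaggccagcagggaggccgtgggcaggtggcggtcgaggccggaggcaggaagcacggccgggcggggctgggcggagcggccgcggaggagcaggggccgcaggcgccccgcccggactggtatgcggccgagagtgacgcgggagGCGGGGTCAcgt
SAV1, chr14:50668307-50668556, minus strand: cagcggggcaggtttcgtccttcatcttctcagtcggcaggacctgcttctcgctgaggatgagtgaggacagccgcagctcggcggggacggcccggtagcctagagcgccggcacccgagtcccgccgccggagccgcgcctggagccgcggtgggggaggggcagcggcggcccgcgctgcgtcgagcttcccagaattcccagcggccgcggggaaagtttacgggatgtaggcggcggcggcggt
Matches to 3 motifs were sought on both strands: GGAATG, bound by TEAD proteins, TGACNNNGC, the core of the antioxidant response element bound by NRF2, and TGANTCA, bound by AP-1. The motifs of NRF2 and AP-1 can match at the same place, since both begin with TGA. YAP1 held the TEAD letters 162 bases before its start. LATS2 held the antioxidant response element core, read on the other strand, 12 bases before its start, and SAV1 held none of the 3 motifs. Among all 35116 RefSeq promoters of this length, the TEAD letters occurred in 11.9%, the antioxidant response element core in 10.9% and the AP-1 letters in 6.57%. Each motif occurred in 1 of the 9 promoters of these genes, the AP-1 letters in one of LATS1.

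NFE2L2 itself had 9839, 9906 and 10039.8 normalized counts in KYSE70 and 5803, 6041 and 6434 in NRF2null-KYSE70. The mRNA was lower in all 3 libraries of the clone (61.4% of the parental level, log2 fold change -0.71), and a gene-level count does not show the deletion itself. A normalized count is a read count divided by the size factor of its library. Libraries held 52072801 to 63975313 reads, at which 1 read was worth 0.889 to 1.14 normalized counts, so counting error was small for these 10 genes, which had at least 864 normalized counts in every library. All 8 squamous epithelial markers were tested, KRT5 and TP63 among them, with summed levels of 327709 to 342316 normalized counts in KYSE70 and 260442 to 281762 in the clone. The lower sum does not hold for each marker. Of these 8 markers 4 were called higher, 3 lower and 1 not called, with a median log2 fold change of 0.34. Among all genes tested 29.3% were called higher and 28.3% lower. Markers of other cell types were low beside the squamous markers and differed between the lines. Of 6 fibroblast markers 2 had enough reads to be tested, COL1A1 and COL3A1, with COL1A2 and DCN listed at 0, and the sum was 1384 to 1618 in KYSE70 and 485 to 638 in the clone. Of 4 immune markers 1 was tested, PTPRC (at most 1.05 and 40.2 to 47.9), and of 3 endothelial markers 1, VWF (133 to 149 and 275 to 449), with CD3E, PECAM1 and CDH5 at or near 0. The part of these in the results was not tested. Transcript length also set libraries apart. In library 1 of NRF2null-KYSE70, genes with long transcripts were high against the other 2 libraries of that line, with a median deviation of 0.12 (log2) in the quartile of longest canonical transcripts, from 4793 bp, and of -0.11 in the quartile of shortest, up to 1616 bp. The difference between the lines also ran with length, from a median log2 fold change of -0.12 in the shortest quartile to 0.09 in the longest, which holds 6 of the 10 genes (YAP1, WWTR1, TEAD1, LATS1, LATS2 and STK4).

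**Figure D1:**
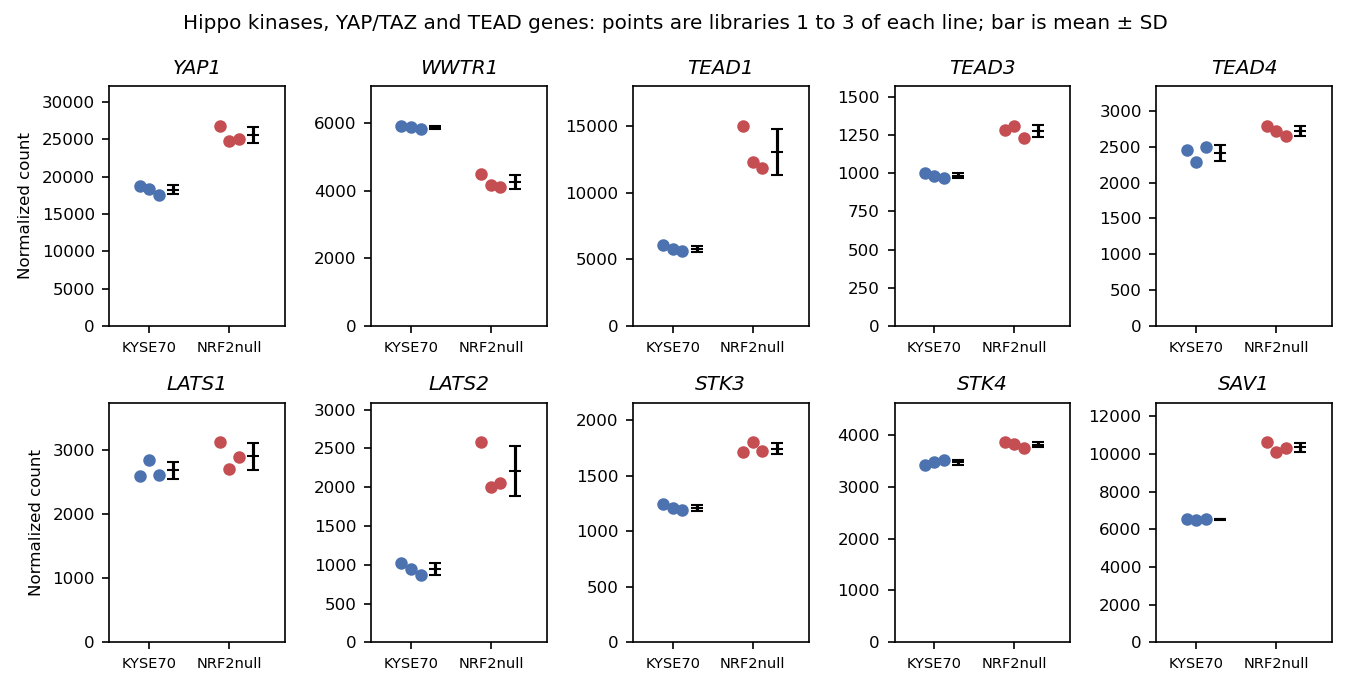
Normalized counts of the 10 genes in each of the 3 KYSE70 and 3 NRF2null-KYSE70 libraries, with the mean ± SD beside each line. The lines do not overlap for 9 genes, overlap for LATS1, and are separated downward for WWTR1 alone. Of all tested genes, 63.4% do not overlap, 32.1% being higher and 31.3% lower.

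The upper kinases and their scaffold were measured first. STK3 (ENSG00000104375, chr8:98371228-98942827, minus strand), which encodes MST2, had 1241, 1206 and 1186 normalized counts in KYSE70 and 1710.1, 1797 and 1717 in NRF2null-KYSE70. Every library of the clone was above every library of the parent. STK3 rose from 1211 ± 27.5 to 1741 ± 48.6 (SD, n = 3 each), which is 1.44-fold or 0.52 as a log2 fold change (SE 0.063, adjusted p = 1.31e-05 in limma).

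STK4 (ENSG00000101109, chr20:44966494-45080021, plus strand), which encodes MST1, had 3414, 3472 and 3518 normalized counts in KYSE70 and 3850.2, 3827 and 3749 in NRF2null-KYSE70. These lines did not overlap either, but the step was small: from 3468 ± 52.0 to 3809 ± 53.1 (SD, n = 3 each), or 1.10-fold. This log2 fold change, 0.14 (SE 0.049, adjusted p = 0.0302 in limma), passed the test as fitted. The call was lost when libraries were scaled to equal totals (log2 fold change 0.060, adjusted p = 0.312), with length and GC trends removed (0.038, adjusted p = 0.481), with quantile normalization (0.092, adjusted p = 0.127) and with no filter on low values (adjusted p = 0.054), and without any 1 of the 3 KYSE70 libraries or of library 2 of the clone (adjusted p = 0.0549 to 0.0938). The genes around STK4 on chromosome 20 ran the other way, with a median of -0.24 over 40 tested neighbours, and measured against them STK4 was higher by 0.37.

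SAV1 (ENSG00000151748, chr14:50632058-50668306, minus strand) encodes the scaffold that holds MST1 and MST2 and brings LATS to them. It had 6566, 6489 and 6526 normalized counts in KYSE70 and 10604, 10106 and 10329 in NRF2null-KYSE70. The spread within each line was narrow beside the gap between the lines. SAV1 rose from 6527 ± 38.4 to 10347 ± 249.6 (SD, n = 3 each), which is 1.59-fold or 0.66 as a log2 fold change (SE 0.044, adjusted p = 5.55e-08 in limma). SAV1 shares 1789 exon bases with ATL1 on the other strand, and whether the counting used strand was not stated. ATL1 had 1073, 1156 and 1221 normalized counts in KYSE70 and 931, 976 and 1134 in the clone, a lower mean with overlapping lines.

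Of the LATS kinases, which phosphorylate YAP and TAZ, LATS2 rose and LATS1 was not called. LATS1 (ENSG00000131023, chr6:149658153-149718105, minus strand) had 2608, 2848 and 2623 normalized counts in KYSE70 and 3125, 2712 and 2891 in NRF2null-KYSE70. One library of the clone lay below one of the parent, so the lines overlapped. The mean was 2693 ± 135 in KYSE70 and 2909 ± 207 in the clone (SD, n = 3 each). The log2 fold change was 0.11 (95% interval -0.03 to 0.25, limma adjusted p = 0.166), and it had the other sign against neighbouring genes (-0.029) and with length and GC trends removed (-0.020).

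LATS2 (ENSG00000150457, chr13:20973036-21061586, minus strand) had 1019, 945 and 864 normalized counts in KYSE70 and 2576, 2005 and 2049 in NRF2null-KYSE70. Every library of the clone was far above every library of the parent, and library 1 of the clone stood above its other two. LATS2 rose from 943 ± 77.8 to 2210.3 ± 318 (SD, n = 3 each), which is 2.34-fold or 1.22 as a log2 fold change (SE 0.098, 95% interval 1.01 to 1.43, adjusted p = 3.25e-07 in limma). Its canonical transcript of 5546 bp falls in the quartile of longest transcripts, which was high in that library. Without that library the log2 fold change was 1.11, and with length and GC trends removed it was 1.18. LATS2 is also a known target gene of YAP and TEAD.

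The coactivator genes moved in opposite directions. YAP1 (ENSG00000137693, chr11:102110447-102233424, plus strand) had 18800.5, 18386 and 17577 normalized counts in KYSE70 and 26797, 24824 and 25018 in NRF2null-KYSE70. All 3 libraries of the clone were above all 3 of the parent. YAP1 rose from 18254 ± 622 to 25546 ± 1088 (SD, n = 3 each), which is 1.40-fold or 0.48 as a log2 fold change (SE 0.048, adjusted p = 2.43e-06 in limma).

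WWTR1 (ENSG00000018408, chr3:149517235-149736714, minus strand), which encodes TAZ, had 5920.3, 5889.7 and 5833 normalized counts in KYSE70 and 4495, 4177 and 4109.7 in NRF2null-KYSE70. The parental libraries were nearly equal, and every library of the clone lay below them. WWTR1 fell from 5881 ± 44.04 to 4261 ± 206 (SD, n = 3 each), which is -0.47 as a log2 fold change (SE 0.051, adjusted p = 5.31e-06 in limma). It was the 1 gene of the 10 called lower, against a background of 28.3% of all genes. The antisense gene WWTR1-AS1, which shares 756 exon bases with it, averaged 16.4 normalized counts over the 6 libraries.

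Of the TEAD genes, which encode the DNA-binding partners of YAP and TAZ, TEAD1 rose the most. TEAD1 (ENSG00000187079, chr11:12674421-12944737, plus strand) had 6064, 5745 and 5637 normalized counts in KYSE70 and 15029, 12289.8 and 11862 in NRF2null-KYSE70. Library 1 of the clone was the highest, and the other two were close to each other and far above the parent. TEAD1 rose from 5816 ± 222 to 13060.3 ± 1718 (SD, n = 3 each), which is 2.25-fold or 1.16 as a log2 fold change (SE 0.076, 95% interval 0.99 to 1.32, adjusted p = 5.06e-08 in limma). The canonical transcript of TEAD1, 9417 bp, is also in the longest quartile. Without library 1 of the clone the log2 fold change was 1.05, with length and GC trends removed it was 1.02, and against its neighbours on chromosome 11, whose median was 0.23, it was 0.93. TEAD1 and LATS2 were the 2 genes of the 10 with both an adjusted p under 0.05 and a log2 fold change of at least 1, thresholds that 14.7% of all genes passed, 7.23% upward and 7.43% downward. Against its neighbours TEAD1 was under the fold threshold, which left LATS2 (1.15) as the 1 gene past both.

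TEAD3 (ENSG00000007866, chr6:35473597-35497079, minus strand) had 1000.5, 979 and 969 normalized counts in KYSE70 and 1282, 1309 and 1231 in NRF2null-KYSE70. Every library of the clone was above the parental ones. TEAD3 rose from 983 ± 16.1 to 1274 ± 39.9 (SD, n = 3 each), which is 1.30-fold or 0.37 as a log2 fold change (SE 0.068, adjusted p = 0.000437 in limma).

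TEAD4 (ENSG00000197905, chr12:2959330-3040676, plus strand) had 2449, 2281 and 2498 normalized counts in KYSE70 and 2788, 2724 and 2643 in NRF2null-KYSE70. The lines did not overlap, although the gap between them was no wider than the range within KYSE70. TEAD4 rose from 2409.5 ± 114 to 2718 ± 72.9 (SD, n = 3 each), which is 1.13-fold or 0.17 as a log2 fold change (SE 0.058, adjusted p = 0.0201 in limma). With length and GC trends removed the log2 fold change was 0.29 (adjusted p = 0.00013). The call was lost with libraries scaled to equal totals (0.10, adjusted p = 0.152) and without library 2 of either line (adjusted p = 0.0982 for KYSE70 and 0.0534 for the clone).

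The remaining family member TEAD2 (ENSG00000074219, chr19:49340595-49362457) was not among the 10 genes and fell. Its mean went from 4186 ± 168 to 2759.8 ± 20.2 (SD, n = 3 each), 65.9% of the parent and -0.60 as a log2 fold change (SE 0.052, adjusted p = 6.73e-07 in limma). Thus 3 TEAD genes were higher in the clone and 1 was lower.

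**Figure D2:**
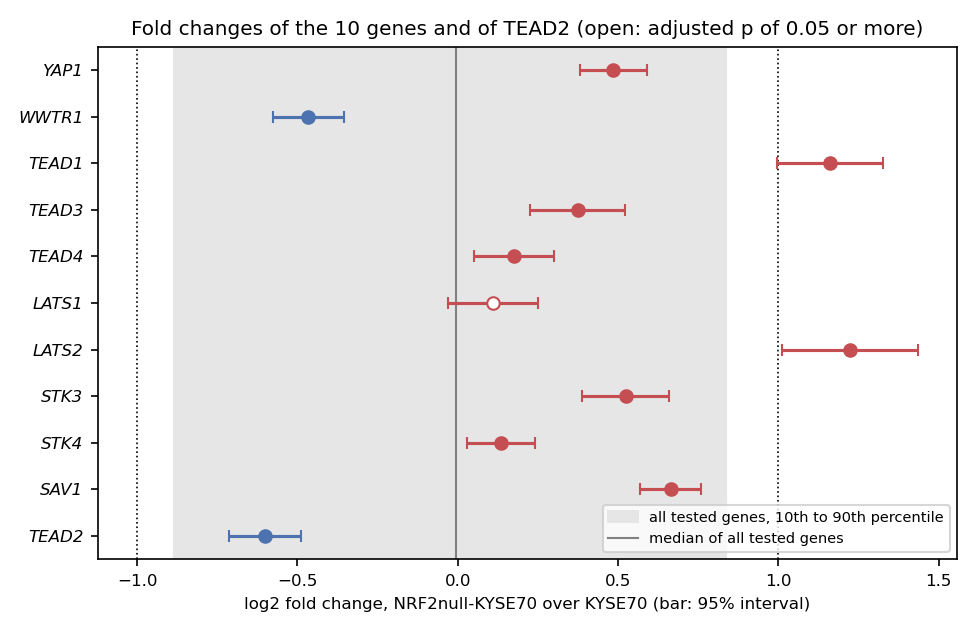
Log2 fold change of NRF2null-KYSE70 over KYSE70 for the 10 genes and TEAD2, with 95% intervals; filled points have an adjusted p under 0.05 and the dotted lines mark log2 fold changes of -1 and 1. TEAD1 (1.16) and LATS2 (1.22) lie outside the grey band, the 10th to 90th percentile of all tested genes (-0.89 to 0.84), and the other points lie inside it.

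The lines did not overlap for 9 of the 10 genes, 8 higher and 1 lower, while 63.4% of all tested genes did not overlap, 32.1% being higher and 31.3% lower. Placed among all tested genes by log2 fold change, LATS2 was at the 94.0 percentile and TEAD1 at the 93.5 percentile. SAV1, STK3, YAP1 and TEAD3 followed between the 86.9 and 76.4 percentiles. TEAD4, STK4 and LATS1 were between the 64.4 and 59.5 percentiles, and WWTR1 was at 21.2.

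Since paralogs encode proteins with overlapping roles, the ratio of each pair was taken within a library, where the library's scaling cancels. With 3 libraries against 3, an exact two-sided permutation test cannot give a p below 0.1. Of the 5 pairs compared, all 5 had no overlap between the lines and reached that smallest value (exact p = 0.1, and 0.1 after Benjamini-Hochberg adjustment over the 5), so none could pass 0.05. The WWTR1 to YAP1 ratio of normalized counts was 0.315, 0.320 and 0.332 in KYSE70 and 0.168, 0.168 and 0.164 in NRF2null-KYSE70. The log2 difference was -0.95, and the values were tight within each line. The LATS2 to LATS1 ratio was 0.391, 0.332 and 0.329 in KYSE70 and 0.824, 0.739 and 0.709 in the clone, a log2 difference of 1.11. The STK4 to STK3 ratio was 2.75, 2.88 and 2.97 in KYSE70 and 2.25, 2.13 and 2.18 in the clone, a log2 difference of -0.39. Measured against their chromosome neighbours, STK3 was higher by 0.46 and STK4 by 0.37 (log2). These are closer together than as fitted (0.52 and 0.14), and this ratio was not recomputed against neighbours. Against TEAD1, the ratio of TEAD3 differed by -0.79 and that of TEAD4 by -0.99 (log2). A trend with transcript length need not cancel in a ratio. Canonical transcripts are 9417 bp for TEAD1, 2986 bp for TEAD3 and 1710 bp for TEAD4. With length and GC trends removed their log2 fold changes were 1.02, 0.41 and 0.29, closer together than as fitted (1.16, 0.37 and 0.17). The ratios themselves were not recomputed in that setting.

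Levels of different genes were compared as normalized counts per kb of the canonical transcript (GENCODE v44), to allow for the length of the gene. The study named a RefSeq annotation for counting, while the deposited values carry Ensembl gene IDs. The lengths used here may therefore differ from those over which reads were counted. In KYSE70, YAP1 had the highest level (3379.8 ± 115 per kb, SD, n = 3), followed by SAV1 (2109.6 ± 12.4), TEAD4 (1409 ± 66.5), WWTR1 (1168 ± 8.74), TEAD1 (618 ± 23.6), STK4 (545 ± 8.16), STK3 (428 ± 9.69), LATS1 (366 ± 18.3), TEAD3 (329 ± 5.39) and LATS2 (170.0 ± 14.03). No neighbours in this order overlapped. In NRF2null-KYSE70 the order was YAP1 (4729.9 ± 201 per kb), SAV1 (3344 ± 80.7), TEAD4 (1589.7 ± 42.6), TEAD1 (1387 ± 182), WWTR1 (846 ± 40.9), STK3 (615 ± 17.1), STK4 (598 ± 8.34), TEAD3 (427 ± 13.3), LATS2 (399 ± 57.3) and LATS1 (395 ± 28.1). There TEAD4 and TEAD1 overlapped, as did STK3 and STK4, and as did TEAD3, LATS2 and LATS1. TEAD1 was above WWTR1 there, and LATS2, last in KYSE70, was at a level near that of LATS1. The order depends on the length used. Over the union of all annotated exons STK3 came last in both lines (96.1 and 138 per kb), because its exon union of 12604 bp is long beside its canonical transcript of 2833 bp, and TEAD1 (1221) was above TEAD4 (1195) in the clone.

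Paralogs were also added up per kb within each of the 4 families. The YAP/TAZ total was 4547 ± 124 in KYSE70 and 5576 ± 241 in NRF2null-KYSE70 (1.23-fold), and the WWTR1 share went from 25.7% to 15.2%. The TEAD total, TEAD2 included, was 4280.3 ± 123 and 4672 ± 226 (1.09-fold). Within it the TEAD1 share went from 14.4% to 29.6%, the TEAD2 share from 45.0% to 27.2% and the TEAD3 share from 7.69% to 9.14%, while the TEAD4 share was 32.9% and 34.1% (exact permutation p = 0.3). The LATS total was 536 ± 22.8 and 794 ± 84.1 (1.48-fold), and the LATS2 share went from 31.7% to 50.1%. The MST total was 972 ± 1.68 and 1213 ± 20.7 (1.25-fold), with an STK3 share of 43.97% and 50.7%. All of these but the TEAD4 share were without overlap between the lines, at the smallest exact permutation p of 0.1. In the YAP/TAZ, LATS and MST families the share restates the paralog ratio given above and is no separate result.

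**Figure D3:**
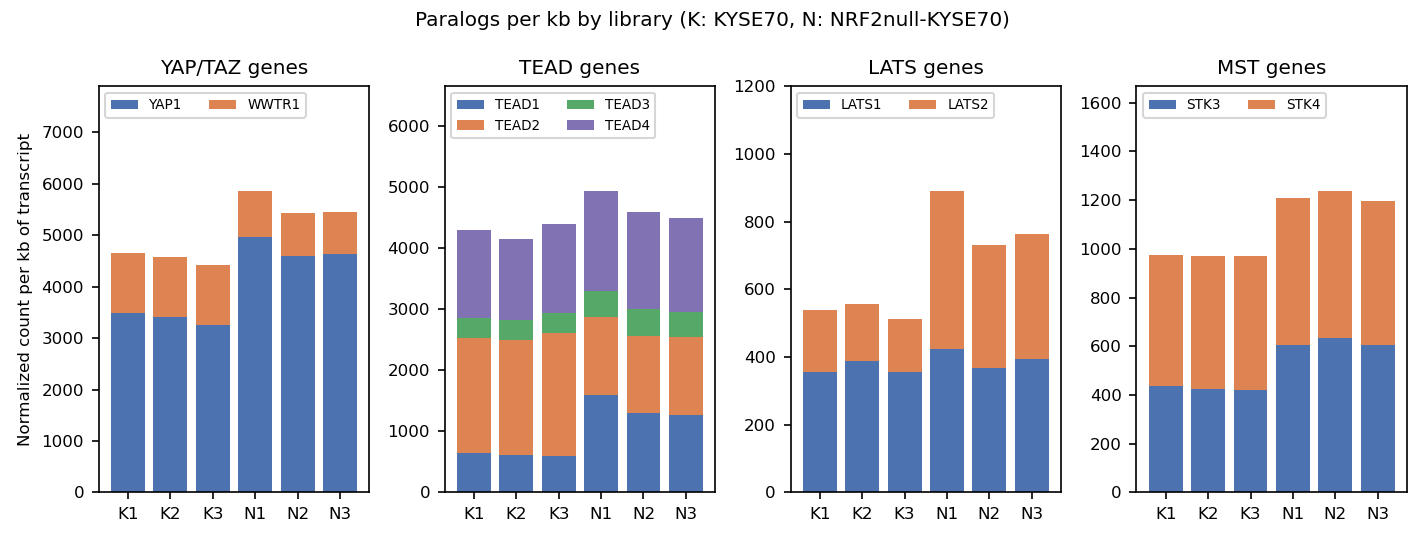
Normalized counts per kb of canonical transcript, stacked by paralog, in the 3 KYSE70 (K1 to K3) and 3 NRF2null-KYSE70 (N1 to N3) libraries. The TEAD total is nearly level (1.09-fold) while TEAD1 grows and TEAD2 shrinks, and LATS2 grows from 31.7% to 50.1% of the LATS total.

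The other Hippo pathway genes were taken from 5 lists holding 86 genes, 78 of which had enough reads to be tested. Of these 39 were higher in the clone, 20 were lower and 19 were not called, with a median log2 fold change of 0.13. Their share of calls, 75.6%, stands beside 57.6% of all genes, and 9 of the 78 passed the fold threshold as well, 5 higher and 4 lower, beside 14.7% of all genes, 7.23% higher and 7.43% lower. The share over all genes depends on the filter, and it was larger at a mean of at least 50 (8415 of 13004 genes called).

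In a list of 25 genes, mostly of adaptors and activators of the MST and LATS kinases, 12 rose, 6 fell and 7 were not called (median 0.13). The list also held the kinase genes STK38 (0.30) and STK38L (0.33), both among the rises. NF2, which encodes merlin, an activator of LATS at the membrane, had 3872, 3576 and 3751 normalized counts in KYSE70 and 9144, 8384 and 7806 in NRF2null-KYSE70. That is 2.26-fold, a log2 fold change of 1.18 (limma adjusted p = 6.23e-09) that is near those of LATS2 and TEAD1. WWC2, of the KIBRA family that works with merlin, rose by 0.99. MOB1A and MOB1B, the LATS coactivators, rose by 0.13 and 0.44. TNIK, a kinase of the MAP4K family, rose by 2.08, and its neighbours on chromosome 3 had a median of 0.63, against which it was higher by 1.45. The genes that fell included RASSF4 and RASSF2, of a family whose members bind MST kinases, and MAP4K1. RASSF4 went from 420.3 ± 55.4 normalized counts to 1.01, 8.83 and 0 in the clone, 10 reads in all, so its fold change is known only roughly (log2 -8.71 to -5.82 over other settings). RASSF2 had a log2 fold change of -1.88 among neighbours with a median of -0.87, against which it was -1.01, and MAP4K1 of -1.40.

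The STRIPAK phosphatase complex turns MST kinases off, and LIM proteins of the AJUBA family bind and restrain LATS. Of 21 such genes 11 rose, 3 fell and 7 were not called (median 0.11), and none passed the fold threshold. WTIP rose by 0.86 and STRIP2 by 0.53 (0.19 and not called against its neighbours), while LIMD1 (-0.71, or -0.27 against its neighbours) and STK25 (-0.60) were lower. PDCD10 (0.60) and PPP2R1A (-0.22) lay among neighbours that ran the same way, and against them their signs were reversed (-0.15 and 0.16).

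Proteins that bind YAP and TAZ or mark them for destruction had 17 of 18 genes tested, of which 8 rose, 6 fell and 3 were not called (median 0.10). AMOTL2 (log2 fold change 1.66) and AMOT (-1.36), both encoding angiomotins that hold YAP out of the nucleus, moved in opposite directions. AMOTL1, the other angiomotin gene, was called lower with overlapping lines (log2 fold change -0.18, limma adjusted p = 0.0496). AMOTL2 had 5506, 5124 and 5401 normalized counts in KYSE70 and 17548, 16991 and 15997 in the clone, and AMOT had 3859, 3668 and 3335 against 1580.3, 1344 and 1321. PTPN14, a phosphatase that binds YAP, rose by 1.04. CSNK1E, a casein kinase that acts on YAP after LATS, rose by 0.53 (0.34 against its neighbours). Of the 7 genes for 14-3-3 proteins, which hold phosphorylated YAP in the cytoplasm, SFN (-0.93), YWHAB (-0.44, or -0.25 against its neighbours), YWHAQ (-0.20) and YWHAZ (-0.17) fell, YWHAG rose (0.13), and YWHAE (0.10) and YWHAH (0.02) were not called.

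Of 17 polarity and atypical cadherin genes 13 were tested, with 8 higher, 3 lower and 2 not called (median 0.30). FAT1 (1.03) and FAT4 (0.78), which encode giant cadherins upstream of the pathway, rose, as did PALS1 (0.72, or 0.42 against its neighbours). FJX1 (-0.21, and from -0.33 to -0.14 over other settings), PARD3 (-0.20, or -0.31 with quantile normalization) and LLGL1 (-0.16) fell slightly, and LLGL1 lost its call in 7 of 19 other settings. Of the VGLL genes, whose products compete with YAP for TEAD, VGLL4 fell by 0.25, among neighbours with a median of -0.50 against which it was higher by 0.26, and the other 3 had too few reads to be tested.

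**Figure D4:**
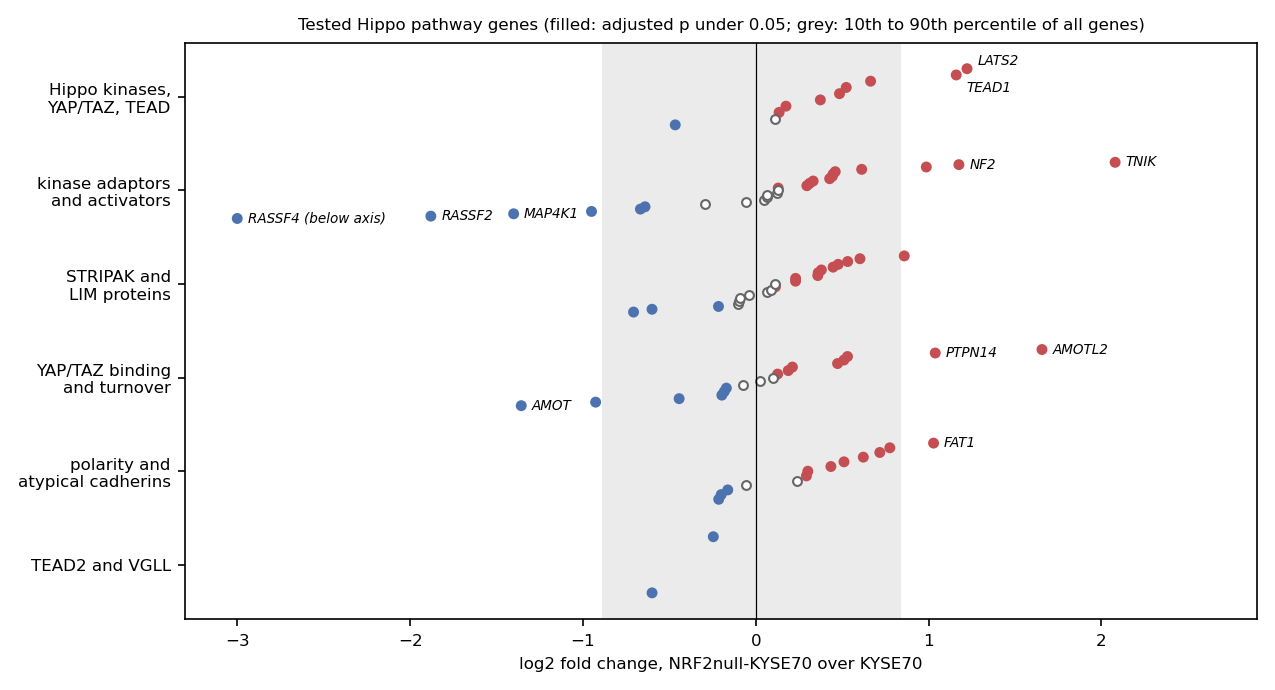
Log2 fold change of NRF2null-KYSE70 over KYSE70 for the 10 genes and for 78 other tested Hippo pathway genes in 5 lists, with genes of at least 1 in size named and RASSF4 (-7.27, and -8.71 to -5.82 over other settings) drawn at the edge. Higher and lower genes occur in all lists except that of TEAD2 and VGLL4, in which both were lower.

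Genes known as outputs of YAP, TAZ and TEAD were 22, a list that also holds LATS2, AMOTL2, PTPN14 and FJX1. Of these 19 rose and 3 fell, 14 of the rises past the fold threshold, with a median log2 fold change of 1.33, where 29.3% of all tested genes were called higher, 28.3% lower and 7.23% higher past both thresholds. Without those 4 genes, 16 rose and 2 fell and the median was 1.54. CCN2, a matricellular growth factor gene, had 10.7, 13.6 and 11.6 normalized counts in KYSE70 and 1648, 1543 and 1355 in NRF2null-KYSE70. Its relative CCN1 rose 13.7-fold and ANKRD1, an ankyrin repeat gene, 19.5-fold. RBMS3 (-0.99, or -0.62 against its neighbours) and FOXF2 (-0.22, or -0.41) fell, FOXF2 without a call in 8 of 19 other settings. The rises of CCN2, CCN1 and ANKRD1 are much larger than the 1.40-fold rise of YAP1 and the 2.25-fold rise of TEAD1. These genes were named as the largest rises of the list, whose median was 1.33 beside 1.16 for TEAD1 (log2). The mRNA values do not say whether YAP or TAZ activity differed.

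The genes whose profile over the 6 libraries was most like that of LATS2, by Euclidean distance between centred log2 values among 11996 genes with a mean of at least 100, were COL17A1 (distance 0.10), LRP1B (0.11) and ZNF106 (0.11). COL17A1, a hemidesmosome collagen gene, had 59597, 55468 and 53482 normalized counts in KYSE70 and 146332, 122286 and 120559 in the clone. Like LATS2 and TEAD1, it was highest in library 1 of each line. Library 1 of the clone also ran with transcript length, and the part of length in this likeness was not tested.

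**Figure D5:**
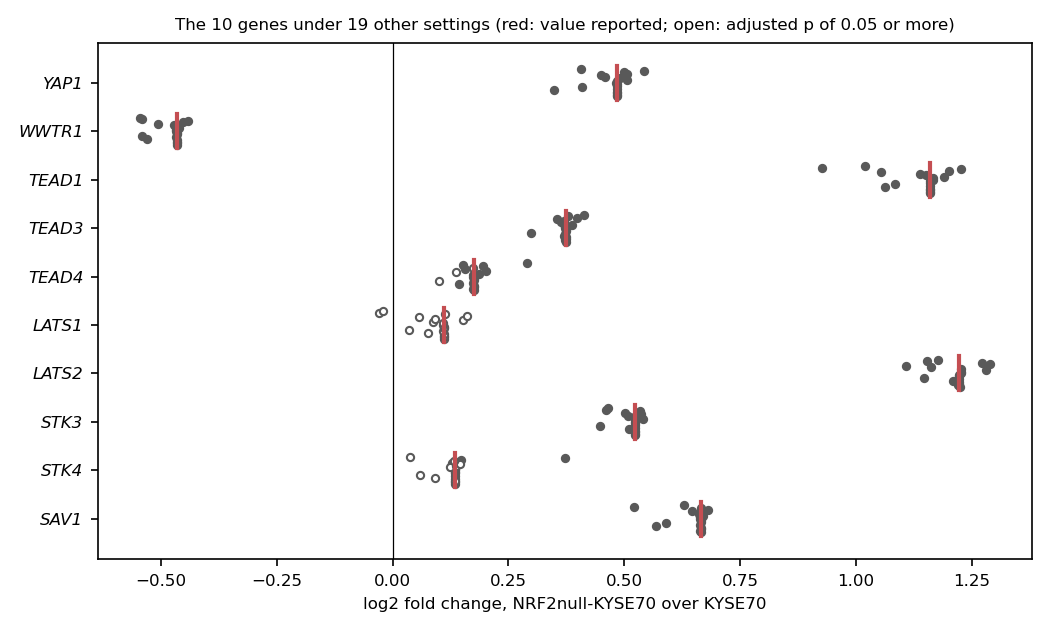
Log2 fold changes of the 10 genes as reported (red line) and under 19 other settings of scaling, filter, test and library (points, open where the adjusted p was 0.05 or more). YAP1, WWTR1, TEAD1, TEAD3, LATS2, STK3 and SAV1 stay called in one direction throughout, whereas STK4 and TEAD4 lose the call in some settings and LATS1 has it in none.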

How the data were processed

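RNA was extracted with RNeasy, and the authors aligned 150 bp NEBNext Ultra reads with STAR 2.6.90c to hg38 after FastQC 0.11.5 and cutadapt 1.12, counted genes with featureCounts 1.5.1 and divided the counts by DESeq2 size factors. The deposited values were this signal, normalized counts per gene. Strand use was not stated. Columns carried no replicate number, so libraries were numbered by their order within each line. Whole reads were recovered for 100% of values (tolerance 0.01).

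All genes with a mean of at least 10 were tested as log2(normalized count + 1) with limma 3.58.1 (R 4.3.3, trend, all 6 libraries in 1 fit). DESeq2 1.42.0 and edgeR 4.0.16 on the recovered reads, other pseudocounts, filters and scalings, each library left out, and centring on 20 tested neighbours per side were alternatives. Removal of length and GC trends by loess was added after seeing the data. In each list, up to 3 called genes per direction with the largest change and a mean of at least 50 were named; any further gene was named with its values known. The 10 genes and the lists were chosen with earlier results of these data known. The main limma fit alone was tested on simulated data, in which few genes differed and no length trend was set. The simulation thus does not cover lines that differ as widely as these.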

Additional observations from a re-analysis of the deposited data

How the results depend on the processing

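YAP1, WWTR1, TEAD1, TEAD3, LATS2, STK3 and SAV1 kept their direction and call under all 19 alternatives, with log2 fold changes of 0.35 to 0.54, -0.54 to -0.44, 0.93 to 1.23, 0.30 to 0.41, 1.11 to 1.29, 0.45 to 0.54 and 0.52 to 0.68. STK4 lost its call without a filter (0.14, adjusted p = 0.054), with quantile normalization (0.092), scaling to totals (0.060) and length and GC trends removed (0.038), and ranged from 0.12 to 0.15 with 1 library left out. TEAD4 lost it with scaling to totals (0.10), was 0.29 with length and GC trends removed, and ranged from 0.14 to 0.20 with 1 library left out. LATS1, not called in any setting, was reversed by neighbour-centring (-0.029) and by removal of length and GC trends (-0.020). Neighbour-centring also reversed PPP2R1A (0.16), PDCD10 (-0.15) and VGLL4 (0.26), and left 1 of the 10 genes past both thresholds. The WWTR1 to YAP1 log2 difference was -0.88 with quantile normalization. LLGL1, FOXF2, STRIP2 and FJX1 lost their calls under 7, 8, 1 and 1 alternatives. The cause was not tested. Of the 10 genes 7 to 9 were called, and other Hippo genes called 52 to 63. Scaling to totals moved the median of all genes by -0.08. No paired analysis was possible because no column of the table names a replicate. Depth limited RASSF4, with 10 reads in the clone, and the 8 Hippo genes with too few reads to test.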
